A study of Mus musculus with 16 samples.

Results

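The genes described here are 40 interferon-stimulated genes of the mouse, chosen by name from a list of interferon effectors, sensors and signalling genes. All 40 were found among the 37255 gene intervals for which ATAC-seq reads had been counted. ATAC-seq uses a transposase that inserts sequencing adapters into accessible DNA, so reads over a gene reflect how open its chromatin was, not its transcription. The cells were retinal ganglion cells, the neurons whose axons form the optic nerve, and 15000 to 50000 of them per library had been isolated from eyes of female mice by flow cytometry. Experimental autoimmune encephalomyelitis (EAE), an inflammatory demyelinating disease model in which the optic nerve can be affected, had been induced at 7 to 8 weeks of age. The 4 groups were naive animals labelled as controls (n = 5), EAE before symptoms (presymptomatic, n = 4), EAE at disease onset (n = 3) and EAE at disease peak (n = 4). The labels name no genotype, transgene or further agent for any group. The sources used here do not give the strain, the way in which EAE was induced, the age at sampling or whether libraries came from separate animals. The p-values therefore set differences between groups against the variation among libraries of a group, and some of that variation may be technical.

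Type I interferons bind the receptor Ifnar1 and Ifnar2, and interferon gamma binds Ifngr1 and Ifngr2. Jak kinases on these receptors activate Stat proteins. Stat2 acts with Irf9 at interferon-stimulated response elements (ISRE), and gamma-activated sites (GAS) are the elements of the interferon gamma response. The genes reached this way encode sensors of foreign nucleic acid, enzymes that block viral RNA and protein synthesis, and the pathway's own transcription factors and brakes. Neurons can respond to interferon, and microglia and infiltrating leukocytes are strong responders in inflamed nervous tissue.

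Interferon can act on genes of this kind through short promoter elements, and a few matches to such elements are shown. RefSeq promoter windows of 300 bases (250 before and 50 after the start, GRCm38.p6) were matched for 31 of the 40 genes. An ISRE-type match, GAAANNGAAA on either strand, was present in the windows of 17 of the 31 (54.8%), against 3.99% of 27025 genes with a window. A GAS-type match, TTCNNNGAA, which reads the same on both strands and can overlap the first motif, was present in 11 of the 31 (35.5%), against 9.55% of all. Both motifs stood in the windows of 6 of the 31 (19.4%), against 0.614% of all. A match is a description of letters and not a shown binding site. Before the start, 13 genes had ISRE-type matches and 8 genes had GAS-type matches. In the stretches below the match is in capitals, each stretch is written 5′ to 3′ on the strand named, and coordinates are those of GRCm38.p6.
Ifit1, chr19:34640775-34640804, minus strand: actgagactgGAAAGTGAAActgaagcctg
Ifit1, chr19:34640794-34640823, minus strand: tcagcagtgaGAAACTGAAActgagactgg
Ifit3, chr19:34583363-34583392, minus strand: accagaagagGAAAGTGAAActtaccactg
Isg15, chr4:156200871-156200900, minus strand: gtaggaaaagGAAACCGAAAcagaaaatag
Rsad2, chr12:26456553-26456582, plus strand: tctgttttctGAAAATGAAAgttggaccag
Oas3, chr5:120777715-120777744, minus strand: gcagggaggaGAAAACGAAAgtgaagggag
Gbp2, chr3:142620594-142620623, minus strand: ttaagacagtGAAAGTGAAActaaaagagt
Stat2, chr10:128270266-128270295, minus strand: ctagggaaagGAAACTGAAAccagggtgcg
Irf1 (GAS-type), chr11:53769914-53769942, plus strand: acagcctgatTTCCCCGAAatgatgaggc
Samhd1 (GAS-type), chr2:157135313-157135341, minus strand: acaccaccctTTCGGAGAAacacaagggc
The far end of the match lay 85 and 104 bases before the RefSeq start of Ifit1 and 156 bases before that of Ifit3. It lay 72 bases before the RefSeq start of Isg15, 120 bases before that of Rsad2 and 75 bases before that of Oas3. It lay 59 bases before the RefSeq start of Gbp2, 222 bases before that of Stat2, 90 bases before that of Irf1 and 235 bases before that of Samhd1. Some deposited starts differ from these. Ifit3 as deposited starts at chr19:34583142, so where the build is GRCm38 its stretch lies inside the deposited gene. Samhd1 as deposited starts at chr2:157135277 on the minus strand, nearer to its stretch.

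Where the deposited coordinates are of GRCm38 and the intervals are placed as set out next, none of these elements was inside the interval counted for its own gene. Both Ifit1 elements lay inside the interval of Ifit1bl1, a longer gene that spans Ifit1, and the other elements shown lay in no counted interval. The lengths behind the deposited values differ from the gene span by 2000 bp, and a length does not fix a position. The intervals were taken to leave out the first and last 1000 bp of each gene. For genes under 2000 bp they were taken as a window about the middle. With that placement the start of every one of the 40 genes lay outside its own interval. On that reading all values of the members below are of gene bodies. The placement was not tested against the reads. The genes lay on 14 chromosomes, with spans of 1123 to 50463 bp (median 14223 bp) and counted intervals of 400 to 48463 bp (median 12223 bp). Several were neighbours: Ifit2, Ifit3 and Ifit1 within chr19:34550549-34650009, the 4 guanylate-binding protein genes within chr3:142496934-142638008, Oas2, Oas3 and Oas1a within chr5:120730333-120907544, and Mx1 and Mx2 within chr16:97447035-97560901. These coordinates are as deposited, with no build stated. The lower coordinate, which is the far end of a minus-strand gene, equalled that of GRCm38.p6 for 24 of the 40 genes. The intervals of 34 genes overlapped no other gene interval. That of Ifit1 lay wholly inside Ifit1bl1 and that of Ifi27 wholly inside Ifi27l2a, so their reads may be shared with these partners.

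Nuclear reads in gene intervals ranged from 1.58 to 15.1 M (megareads) per library, and mitochondrial intervals took 8.36% to 64.7% of interval reads. Depth differed by stage. Peak libraries held 1.58 to 3.70 M nuclear reads, below every naive library (4.67 to 15.1 M) and every onset library (4.18 to 15.0 M). Presymptomatic libraries held 2.23 to 8.17 M. Low counts at peak are therefore of the group with the lowest median depth (3.42 M). Onset replicate 3 stood apart, with the lowest mitochondrial share and a TMM scaling factor of 2.02. The marker check did not set ganglion cells apart from other retinal cells: pooled read density over the retinal ganglion cell marker genes (median over libraries 1.03 reads per kb per M nuclear reads) lay above that over all nuclear intervals (0.805) but near that over rod (0.968) and Müller glia and astrocyte markers (1.16), while microglia and macrophage (0.595) and lymphocyte markers (0.624) lay below. The 40 interferon-stimulated genes together received 651 to 5162 reads per library (median 2206), and between 1 and 7 of them had no read in a given library.

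No interferon-stimulated gene passed the test at any stage of EAE. By edgeR's quasi-likelihood test with Benjamini-Hochberg adjustment over 29902 intervals, 0 of the 36 members that could be tested were called in each comparison with naive, where 0% of all tested intervals were called as well. The lowest adjusted p among the members was 1.00 before symptoms, 0.972 at onset and 1.00 at peak. DESeq2 called 0 of the 36 in these comparisons too, and an F test over the 3 stages called 0 (lowest adjusted p 1.00). At an unadjusted p under 0.05, 1 member was higher and 2 were lower before symptoms, against 0.351% and 0.813% of all tested intervals. At onset 1 member was higher and 0 were lower, against 1.57% and 3.38% of all. At peak 0 were higher and 1 was lower, against 1.8% and 1.81% of all. These counts depended on single libraries. Without presymptomatic replicate 4, 0 members were higher and 1 (Samhd1) was lower before symptoms, against 0.179% and 0.667% of all. Leaving out each library in turn gave totals of 1 to 4 members before symptoms and 0 to 2 at onset and at peak. Of all tested intervals, 0.179% to 0.762% were then higher and 0.641% to 1.47% lower before symptoms. At onset these shares were 0.612% to 2.53% and 1.19% to 5.90%, and at peak 1.11% to 2.33% and 1.51% to 3.67%. Samhd1 was the 1 member below that threshold before symptoms in all 16 of these fits. By the same threshold DESeq2 gave 1 member higher and 3 lower before symptoms, against 0.572% and 1.15% of all tested intervals. It gave 1 higher and 0 lower at onset (1.60% and 4.53% of all), and 0 higher and 1 lower at peak (2.41% and 2.18%). The F test of edgeR gave 1 member at that threshold (Samhd1, unadjusted p = 0.035), against 3.16% of all tested intervals. Groups that did not overlap were found for 0 members above and 1 below naive before symptoms (0.365% and 0.482% of all), 1 above and 0 below at onset (1.6% and 0.936%) and 0 in either direction at peak (0.502% and 0.475%).

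Seen as a set, the members lay close to all tested intervals. Their median log2 fold change against naive was -0.08 before symptoms, 0.02 at onset and 0.04 at peak, beside -0.06, -0.01 and -0.03 over all tested intervals. Fold changes above 0 were found for 13, 21 and 22 of the 36 members, against 41.6%, 48.6% and 47.1% of all tested intervals. The onset median rested on onset replicate 3, and without it was -0.13, with 14 of 36 members above 0. Summed over all 40 genes, reads per M nuclear reads were 358.9 ± 27.5 (SD, n = 5) in naive libraries, 348.1 ± 14.5 (n = 4) before symptoms, 382 ± 43.0 (n = 3) at onset and 391 ± 47.8 (n = 4) at peak. The lowest and highest libraries were 320 and 388 in the naive group and 337 and 445 at peak, and every group overlapped the naive range. Because libraries are bulk samples, fewer cells with an open gene and less opening per cell cannot be told apart.

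How large a change the data could have missed is given by the intervals. The median standard error of a member's log2 fold change was 0.41 before symptoms, 0.44 at onset and 0.41 at peak. The 95% interval lay entirely below a log2 fold change of 1 (a doubling) for 24, 23 and 24 of the 36 members, against 70.6%, 63% and 64.5% of all tested intervals. It lay entirely above -1 for 18, 20 and 24 members, against 62.9%, 57.9% and 63.9% of all. It lay within -1 to 1 for 11, 15 and 17 members, against 48.4%, 36.9% and 42.9% of all. For the remaining members the interval reached past a doubling, a halving or both.

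**Figure D1:**
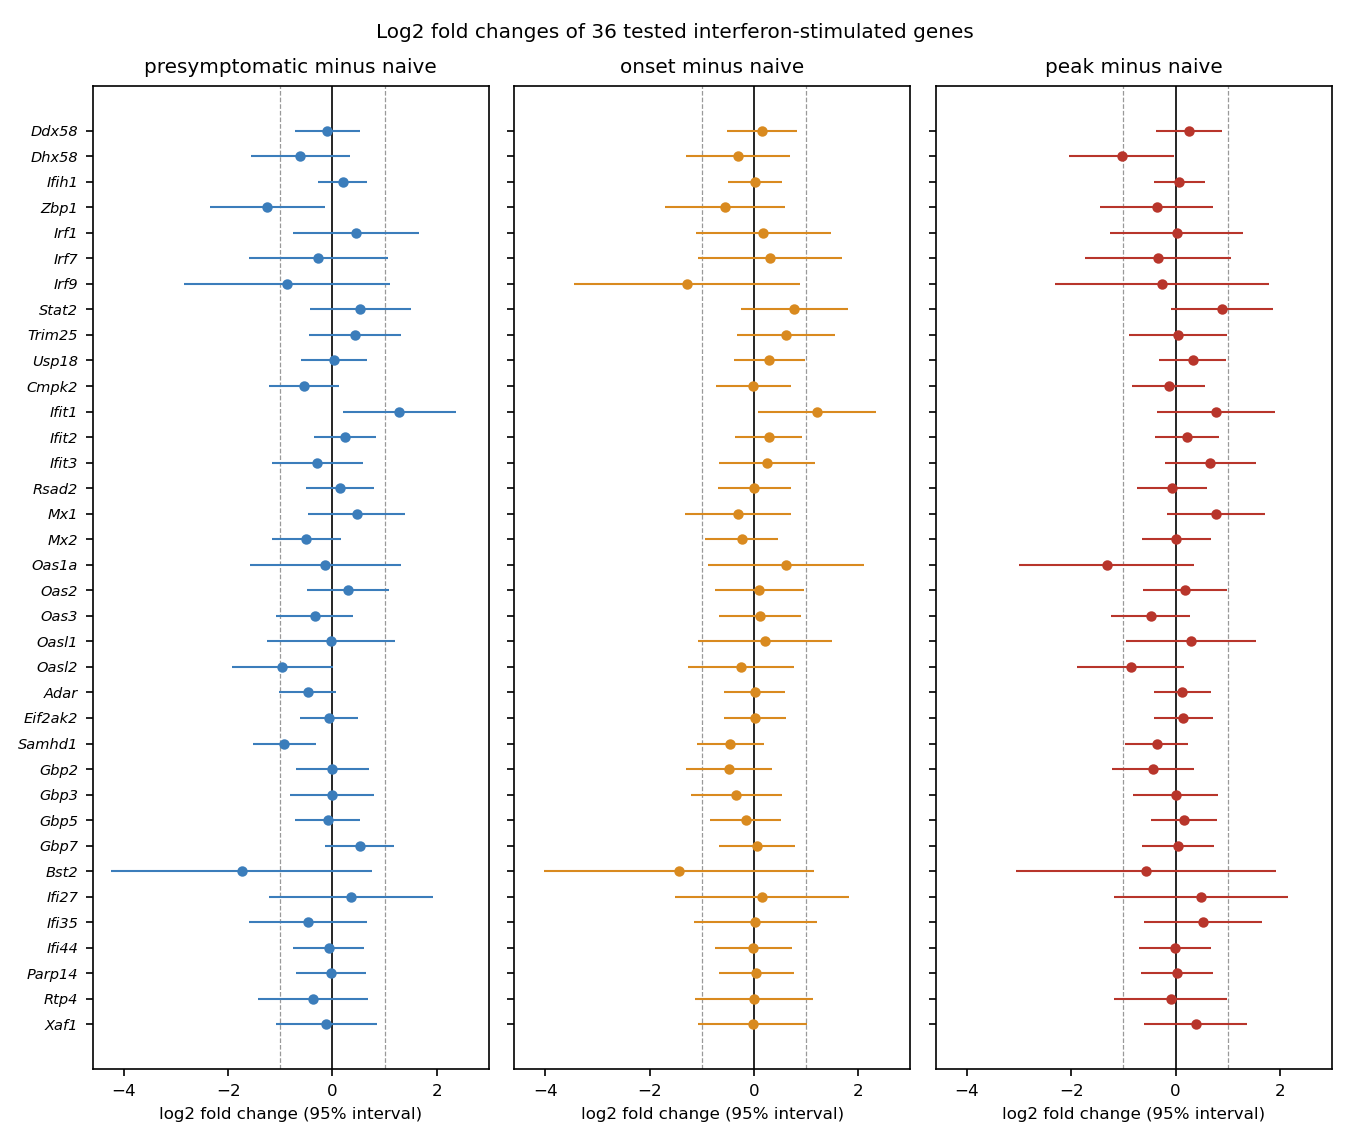
Log2 fold changes of the 36 tested interferon-stimulated genes (rows, ordered by role) at 3 stages of EAE against naive, on the x axis; points are edgeR estimates, bars are 95% intervals and dashed lines mark -1 and 1. Most intervals cross 0, and the widest belong to genes with few reads such as Bst2 and Irf9.

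The cytosolic sensors were Ddx58 (RIG-I) and Ifih1 (MDA5), which detect viral RNA, Dhx58 (LGP2), which tunes them, and Zbp1, which senses Z-form nucleic acid and can start necroptosis. None of the 4 was called at any stage. Their log2 fold changes had medians of -0.36 before symptoms, -0.14 at onset and -0.15 at peak, with 1, 2 and 2 of the 4 above 0. Zbp1 measured 3.85, 1.61, 2.45, 7.80 and 1.66 CPM (TMM-scaled counts-per-million) in naive libraries and 1.58, 2.32, 1.09 and 0.466 before symptoms. The groups overlapped, and naive replicate 4 held the highest value. The log2 fold change of Zbp1 before symptoms was -1.25 ± 0.53 (SE; unadjusted p = 0.027, adjusted p = 1.00 by edgeR), and it was -0.72 without naive replicate 4. At onset Zbp1 measured 2.89, 1.39 and 2.76 CPM and at peak 4.54, 2.57, 0.964 and 2.49 CPM, both inside the naive range apart from single low libraries. The corresponding log2 differences were -0.56 ± 0.56 and -0.36 ± 0.53. Without naive replicate 4 the onset difference of Zbp1 was -0.03. At peak, leaving out single libraries gave -0.79 (without peak replicate 1) to 0.17 (without naive replicate 4).

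Dhx58 gave 3.42, 2.78, 2.37, 2.85 and 5.12 CPM in naive libraries and 1.70, 2.57, 1.28 and 0.622 CPM at peak. Of the peak libraries, 3 lay below every naive library and peak replicate 2 lay inside the naive range; the lowest value rested on 2 reads. The difference was -1.03 ± 0.49 on the log2 scale (unadjusted p = 0.044, adjusted p = 1.00 by edgeR), and -0.61 ± 0.47 before symptoms and -0.30 ± 0.49 at onset. Before symptoms the difference of Dhx58 was -0.94 without presymptomatic replicate 4 and -0.40 without presymptomatic replicate 3. At onset it was -0.83 without onset replicate 3 and -0.02 without onset replicate 2. Ddx58 spread widely among naive libraries, at 5.66, 9.98, 15.5, 4.53 and 7.65 CPM. All 11 EAE libraries fell inside that range: 7.11 to 9.12 CPM before symptoms, 9.05 to 10.0 at onset and 8.36 to 12.1 at peak. The log2 differences of Ddx58 were -0.10 ± 0.30, 0.16 ± 0.33 and 0.26 ± 0.31, and leaving out single libraries gave -0.26 to 0.21, -0.00 to 0.46 and 0.10 to 0.57. Ifih1, with the most reads of the sensors and of all members (3026 over the 16 libraries), was also the most tightly measured, at 0.19 ± 0.23, 0.02 ± 0.25 and 0.07 ± 0.24.

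The signalling and feedback genes comprise Stat2 and Irf9, the DNA-binding complex of the type I response, Irf1 and Irf7, transcription factors that are themselves induced, Trim25, a ubiquitin ligase that activates RIG-I, and Usp18, which removes Isg15 from proteins and blocks the receptor. None of the 6 was called, and 4, 5 and 4 of them had log2 fold changes above 0 in order of stage. Stat2 measured 5.88, 2.30, 0.613, 0.843 and 4.57 CPM in naive libraries. It measured 5.10, 3.55, 2.92 and 4.89 CPM before symptoms, 5.40, 3.23 and 5.94 at onset, and 6.52, 5.99, 3.21 and 5.29 at peak. No EAE library was as low as naive replicates 2, 3 and 4, whereas naive replicates 1 and 5 lay among the EAE values. The log2 differences of Stat2 were 0.53 ± 0.47 before symptoms, 0.78 ± 0.50 at onset and 0.90 ± 0.48 at peak (unadjusted p = 0.07 at peak, adjusted p = 1.00 by edgeR). Before symptoms the difference was 0.95 without naive replicate 1, 0.28 without naive replicate 3 and 0.31 without naive replicate 4. At onset it was 1.20 without naive replicate 1 and 0.52 without naive replicate 3.

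Trim25 ranged from 1.60 to 4.02 CPM in naive libraries (median 1.99), from 2.07 to 4.79 before symptoms, from 3.04 to 4.24 at onset and from 0.642 to 3.73 at peak. Naive replicate 5 was the only naive library within the onset range. The onset difference of Trim25 was 0.62 ± 0.46. Irf7, often called the master factor of the type I response, has a counted interval of 1317 bp and received 0 to 44 reads per library. It measured 0.641, 1.03, 1.76, 0.843 and 0.867 CPM in naive libraries and 1.56, 0.998, 0.482 and 0 at peak, and its log2 differences were -0.28 ± 0.65, 0.30 ± 0.67 and -0.34 ± 0.68. Leaving out single libraries gave -0.44 to -0.00, -0.23 to 0.59 and -0.90 to -0.02. The sign at onset turned under 2 of the 23 alternative analyses in which Irf7 was tested. Irf1 and Usp18 differed from naive by at most 0.45 and 0.33 on the log2 scale at any stage, within their standard errors or close to them, and Irf9, with 121 reads in all, could not be read to better than an SE of 0.96.

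The effectors of the IFIT and ISG15 class include Ifit1, Ifit2 and Ifit3, which bind viral RNA that lacks host cap marks, Isg15, a ubiquitin-like protein, Rsad2 (viperin), which makes a chain-terminating nucleotide, and its neighbour Cmpk2, a mitochondrial nucleotide kinase. None was called. Ifit1 was the member with the largest differences above naive before symptoms and at onset. It measured 0.641, 0.926, 0.766, 1.27 and 0.788 CPM in naive libraries and 2.07, 2.68, 0.816 and 3.26 before symptoms. At onset it measured 1.63, 1.91 and 2.53 CPM, and at peak 0.850, 0.855, 3.05 and 1.24. All 3 onset libraries lay above all 5 naive libraries, which was so for 1 of the 36 members and for 1.6% of all tested intervals. Presymptomatic replicate 3 and 3 of the peak libraries lay inside the naive range.

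The log2 fold change of Ifit1 was 1.28 ± 0.53 before symptoms (unadjusted p = 0.021, adjusted p = 1.00 by edgeR) and 1.21 ± 0.55 at onset (unadjusted p = 0.037, adjusted p = 0.972). At peak it was 0.77 ± 0.55, and 0.12 without peak replicate 3. Leaving out any single library gave 1.08 to 1.58 before symptoms and 1.01 to 1.36 at onset. These values rest on 4 to 55 reads per library. Ifit1bl1, whose interval contains that of Ifit1, measured 27.5 ± 3.38 CPM (SD, n = 5) in naive libraries and differed by 0.16 ± 0.22, 0.27 ± 0.23 and 0.14 ± 0.22 on the log2 scale. Which of the pair the Ifit1 reads belong to cannot be told apart.

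The neighbours of Ifit1 gave other values. Ifit2 differed from naive by 0.24 ± 0.29, 0.28 ± 0.32 and 0.22 ± 0.30 at the 3 stages. Ifit3 measured 2.99, 3.50, 2.30, 2.11 and 1.89 CPM in naive libraries, 1.82, 1.38, 3.61 and 1.40 before symptoms, 3.52, 4.32 and 1.38 at onset and 4.54, 5.13, 2.89 and 3.73 at peak. Its log2 differences of -0.29 ± 0.43, 0.25 ± 0.45 and 0.67 ± 0.42 were within the spread of libraries, and all groups overlapped. Leaving out single libraries gave -0.73 to -0.13 and -0.11 to 0.61 for the first pair of these, and 0.53 to 0.82 at peak. Rsad2 stayed within 0.14 of naive at every stage (SE 0.32 to 0.34). Cmpk2 differed by -0.55 ± 0.33 before symptoms and by -0.01 ± 0.35 at onset.

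Isg15 could not be tested. Its counted interval is 605 bp long and received 18 reads over the 16 libraries, with none in 11 of them. Reads were present in naive replicate 1 (0.214 CPM), presymptomatic replicate 2 (0.145 CPM), onset replicates 2 and 3 (0.147 and 0.276 CPM) and peak replicate 3 (0.642 CPM). A count of 0 allows up to 3 reads, which is 0.103 to 0.933 CPM depending on the library, so no level or order of groups can be read for Isg15.

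**Figure D2:**
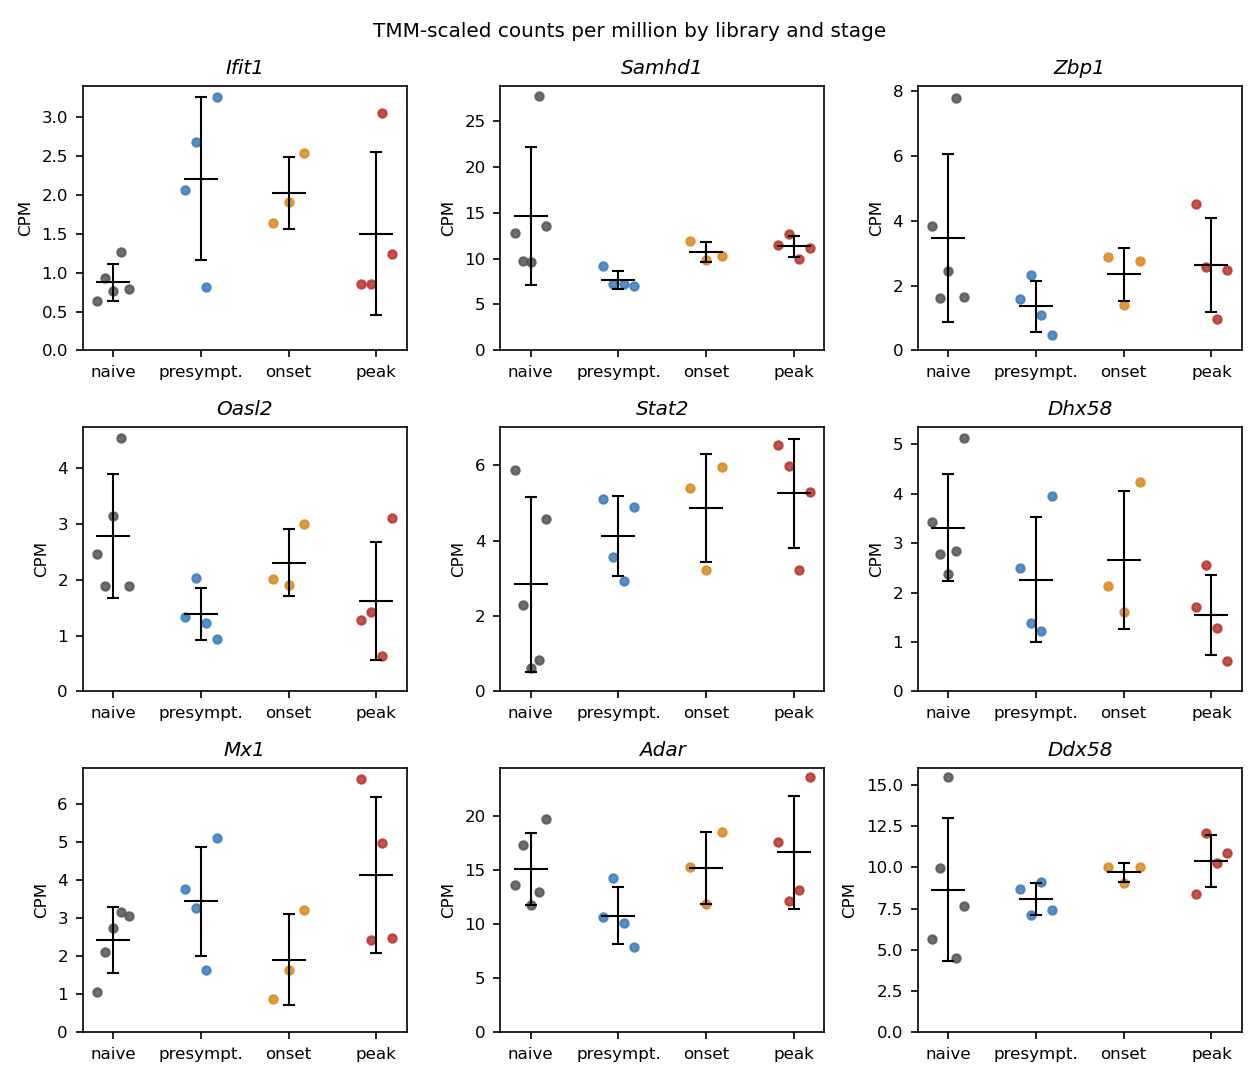
TMM-scaled CPM of 9 interferon-stimulated genes (y axis of each panel, from 0) in each library of the 4 groups (x axis); the horizontal line is the group mean and the bar 1 SD, with n = 5, 4, 3 and 4. Ifit1 at onset lies above the naive libraries, Samhd1 before symptoms lies below them, and the groups overlap for the other panels against naive.

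The MX and OAS class includes Mx1 and Mx2, dynamin-like GTPases that trap viral particles, and the oligoadenylate synthetases and their relatives, of which Oas1a, Oas2 and Oas3 activate RNase L. Of these 7 genes none was called, and 2, 4 and 4 had log2 fold changes above 0. Mx1 measured 1.07, 2.13, 2.76, 3.16 and 3.07 CPM in naive libraries, 3.77, 3.26, 1.63 and 5.12 before symptoms, 0.879, 1.65 and 3.22 at onset and 6.66, 2.42, 4.98 and 2.49 at peak. Each EAE group held libraries on both sides of the naive median. Its differences were 0.46 ± 0.45, -0.30 ± 0.49 and 0.78 ± 0.46, and the last was 0.44 without peak replicate 1. The first was 0.25 without presymptomatic replicate 4 and 0.71 without presymptomatic replicate 3. The onset difference of Mx1 was -0.89 without onset replicate 3 and 0.00 without onset replicate 1. The deposited identifiers of Mx1 and Mx2 are of non-coding transcripts.

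Oasl2 measured 2.46, 1.89, 3.14, 4.53 and 1.89 CPM in naive libraries against 1.34, 2.03, 1.22 and 0.931 before symptoms. Of the presymptomatic libraries, 3 lay below every naive library. The difference was -0.96 ± 0.47 (unadjusted p = 0.053, adjusted p = 1.00 by edgeR). At peak Oasl2 measured 1.28, 1.43, 0.642 and 3.11 CPM, a difference of -0.86 ± 0.50, and at onset -0.25 ± 0.49. The peak difference of Oasl2 was -1.29 without peak replicate 4, and the onset difference was -0.50 without onset replicate 3 and -0.01 without naive replicate 4. Oas2 covered 1.92 to 10.6 CPM in naive libraries (median 4.18), a range that held all 11 EAE libraries, and differed by 0.30 ± 0.39, 0.10 ± 0.42 and 0.18 ± 0.40. Leaving out single libraries gave 0.08 to 0.68, -0.11 to 0.48 and -0.03 to 0.56 for Oas2. Oas3 differed by -0.34 ± 0.36, 0.11 ± 0.38 and -0.48 ± 0.37.

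Among the RNA and nucleotide enzymes, Adar edits adenosine to inosine in double-stranded RNA, Eif2ak2 (PKR) stops translation and Samhd1 breaks down the nucleotides needed for reverse transcription. Samhd1 had the smallest p of all members. It measured 12.8, 9.70, 9.58, 27.7 and 13.6 CPM in naive libraries and 9.17, 7.25, 7.28 and 6.99 before symptoms. All 4 presymptomatic libraries lay below all 5 naive libraries, as was so for 1 of the 36 members and 0.482% of all tested intervals. The log2 fold change was -0.92 ± 0.30 (unadjusted p = 0.0041, adjusted p = 1.00 by edgeR), and -0.56 without naive replicate 4, which held the highest value. At onset Samhd1 measured 11.9, 9.90 and 10.3 CPM and at peak 11.5, 12.7, 9.96 and 11.2, all inside the naive range. The differences were -0.45 ± 0.32 and -0.37 ± 0.29, and -0.09 and -0.01 without naive replicate 4.

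Adar measured 13.6, 17.3, 11.7, 13.0 and 19.7 CPM in naive libraries and 10.7, 14.3, 10.1 and 7.92 before symptoms. Of the presymptomatic libraries, 3 lay below the naive range. The difference of -0.47 ± 0.27 did not pass the test (unadjusted p = 0.088). At onset and peak the Adar values, 11.8 to 18.5 and 12.1 to 23.6 CPM, overlapped the naive ones, with differences of 0.01 ± 0.29 and 0.13 ± 0.27. The sign of both Adar differences turned when single libraries were left out (-0.16 to 0.17 and -0.08 to 0.26). The largest difference of Eif2ak2 at any stage was 0.145 (SE 0.28), at peak.

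The guanylate-binding proteins, GTPases that attack the vacuoles of intracellular pathogens and respond mainly to interferon gamma, gave log2 fold changes above 0 for 2, 1 and 3 of 4 genes, and none was called. Gbp2 measured 5.77, 2.85, 7.58, 5.90 and 2.68 CPM in naive libraries. It measured 4.98, 4.79, 5.03 and 4.89 before symptoms, 3.64, 4.32 and 2.58 at onset and 5.39, 2.00, 4.01 and 3.11 at peak. The presymptomatic libraries sat close together in the middle of the naive range, and the log2 difference was 0.00 ± 0.34, with a sign that turned under 12 of 24 alternatives. The later differences of Gbp2 were -0.49 ± 0.40 and -0.43 ± 0.38. At onset the difference was -0.27 without naive replicate 3 and -0.31 without onset replicate 3. At peak it was -0.22 without naive replicate 3, -0.22 without peak replicate 2 and -0.72 without peak replicate 1. Gbp7 had the largest difference of the 4 before symptoms, 0.52 ± 0.33, and Gbp3 and Gbp5 stayed within 0.34 of naive at every stage.

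The membrane restriction factors are short genes that this count hardly covers. Bst2 (tetherin) holds budding virions at the cell surface, and Ifitm1, Ifitm2 and Ifitm3 block virus entry. Bst2 had 70 reads in all and none in 6 libraries, and its differences of -1.74, -1.43 and -0.57 had an SE of 1.22 to 1.26. Ifitm1, Ifitm2 and Ifitm3 received 15, 29 and 51 reads over the 16 libraries and were not tested. Ifitm3 measured 0.534, 0.240, 0.153, 0.843 and 0.315 CPM in naive libraries, 0.243, 0, 0.204 and 0 before symptoms, 0, 0 and 0.553 at onset and 0.567, 0.285, 0 and 0 at peak. Its libraries held 0 to 12 reads each, and 6 held none. Of the 6 other interferon-induced genes (Ifi27, Ifi35, Ifi44, Parp14, Rtp4 and Xaf1), 1, 3 and 4 had log2 fold changes above 0. Parp14, an ADP-ribosyltransferase, and Ifi44 were among the members nearest to naive, each within 0.07 at every stage (SE 0.33 to 0.36).

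Between EAE stages the members gave no call either. Of 36 members 0 were called at onset against presymptomatic, at peak against onset and at peak against presymptomatic, with 0% of all tested intervals called in each, and DESeq2 called 0 members. Against presymptomatic libraries, 24 members were above 0 at onset (median log2 fold change 0.21, all tested intervals 0.03) and 23 at peak (median 0.18, all 0.03), where 53.3% of all tested intervals were above 0 in each. The onset median was 0.08 without onset replicate 3, and the peak median was 0.07 without presymptomatic replicate 4. At an unadjusted p under 0.05, 0 members were higher and 0 lower at onset (2.41% and 1.72% of all), and 2 were higher and 0 lower at peak (2.21% and 1.2% of all). These 2 were Adar, at 0.60 ± 0.29 (unadjusted p = 0.044), and Ifit3, at 0.96 ± 0.46 (unadjusted p = 0.044). At peak 0 members were below that threshold without presymptomatic replicate 1 or 4, onset replicate 1, or peak replicate 1 or 4. In these fits 1.45% to 2.52% of all tested intervals were higher and 1.01% to 1.59% lower. Leaving out single libraries gave 0.40 to 0.75 for Adar and 0.78 to 1.39 for Ifit3. The comparisons of onset and of peak with the presymptomatic stage share the 4 presymptomatic libraries.

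From onset to peak, 22 members were above 0 (median 0.07, all tested intervals 0.03; 52.1% of all above 0). At an unadjusted p under 0.05, 1 member was higher and 1 was lower, against 2.99% and 3.66% of all tested intervals, and no member's groups were free of overlap (2.56% of all higher and 4.18% lower). Mx1 differed by 1.09 ± 0.53 (unadjusted p = 0.049) and Oas1a by -1.93 ± 0.87 (unadjusted p = 0.035). Oas1a measured 1.26, 1.94 and 1.61 CPM at onset and 0.283, 0, 1.28 and 0 at peak. Its peak values overlapped the onset values only through peak replicate 3, and its difference was -3.74 without that library. The peak libraries held 0 to 8 reads of Oas1a, with none in 2 of them, against 10 to 53 reads at onset. The peak values thus lay near the floor of the count, and the size of that difference cannot be read. The difference of Mx1 was 1.64 without onset replicate 3 and 0.76 without peak replicate 1. Neither gene was below the unadjusted threshold without onset replicate 2 or without peak replicate 1. Oas1a was also not below it without onset replicate 3, peak replicate 2 or peak replicate 4. Mx1 was also not below it without naive replicate 2, 4 or 5 or presymptomatic replicate 1, 2 or 4. The same held for Mx1 without onset replicate 1 or peak replicate 3. Samhd1 was the only member whose onset libraries and peak libraries all lay above all presymptomatic ones (0.47 ± 0.33 and 0.56 ± 0.31), an arrangement seen in 5.38% and 1.51% of all tested intervals. All 3 onset libraries of Gbp2 lay below all presymptomatic ones (-0.49 ± 0.42), as did 4.69% of all.

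Read density, which scales reads to interval length, was below the median of all tested intervals for most members. It was not corrected for multiple alignments, whose treatment is not given, so levels compared between genes carry that limit. Over the 36 tested members the median was 0.582 reads per kb of interval per M nuclear reads, against 0.677 over all tested intervals of at least 500 bp (interquartile range 0.479 to 1.00). Of the 36, 11 lay above the median of all, 13 below its lower quartile and 6 above its upper quartile. Ifit3 (1.45), Rsad2 (1.44), Irf7 (1.41), Ifi44 (1.12), Ifit2 (1.07) and Cmpk2 (1.02) were the 6 highest. Oas1a (0.200), Oasl2 (0.297), Trim25 (0.298) and Irf9 (0.307) were the lowest, and the highest density was 7.26 times the lowest. Neighbours in this order differed by less than their spread over the 16 libraries, which had an SD of 0.609 for Ifit3, 0.354 for Rsad2 and 0.780 for Irf7. By role, the median density was 1.07 for the IFIT and ISG15 class, 0.731 for the guanylate-binding proteins, 0.610 for the RNA and nucleotide enzymes, 0.561 for the sensors, 0.481 for signalling and 0.421 for the MX and OAS class.

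Olfactory and vomeronasal receptor genes, which are silent in most tissues, were taken for comparison. They were not a steady floor. Their pooled density was 1.02, 0.895 and 0.891 in naive replicates 3 and 4 and peak replicate 3, above all nuclear intervals (0.8055 in each). Pooled over the 39 members with intervals of at least 500 bp, density was 0.533 to 0.741 per library (median 0.607), against 0.353 to 1.02 (median 0.513) pooled over 1413 receptor intervals. The members lay above the receptors in 10 of 16 libraries, with a ratio of 0.524 to 1.91 (median 1.17). They lay below the pool of all nuclear intervals in all 16 libraries, at 0.662 to 0.920 of it. Mean pooled density of the members was 0.597 ± 0.0457 (SD, n = 5) in naive libraries, 0.579 ± 0.0239 before symptoms, 0.635 ± 0.0717 at onset and 0.651 ± 0.0795 at peak.

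**Figure D3:**
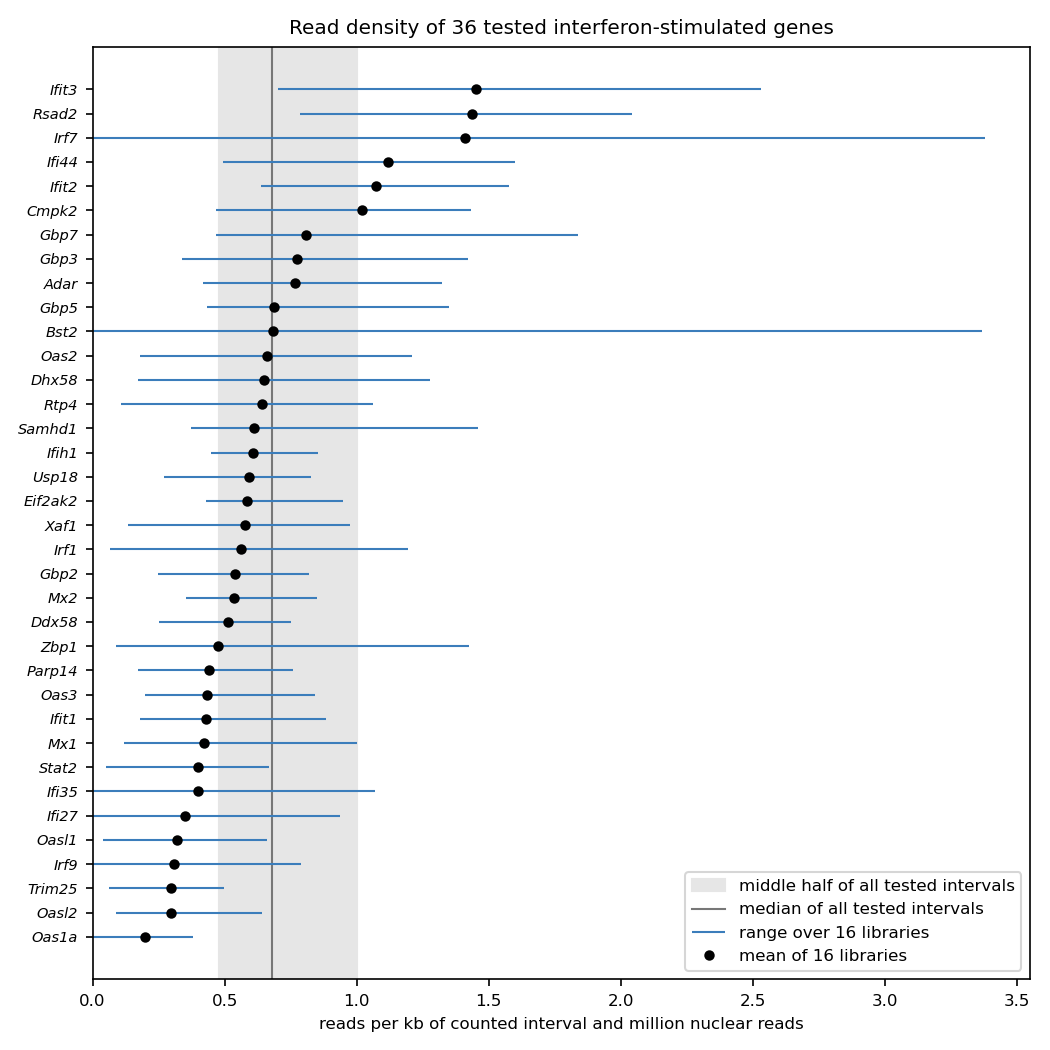
Read density of the 36 tested interferon-stimulated genes (rows, ordered by mean) in reads per kb of counted interval per M nuclear reads (x axis); points are means of 16 libraries, lines the range over them, and the grey band and line the interquartile range and median of all tested intervals. Ifit3, Rsad2 and Irf7 lie right of the band, and 13 genes have means left of it.

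The other genes of the pathway, a list of 49, gave no call among the 34 that could be tested, with 0 at an unadjusted p under 0.05 in each comparison with naive (1.16%, 4.95% and 3.61% of all tested intervals). Their median log2 fold changes were -0.10, 0.12 and 0.08, with 14, 22 and 19 of 34 above 0. Of 14 ligand genes, 13 had too few reads to test, among them Ifnb1 (67 reads in all) and Ifna4 (72), and Ifng differed by -0.38 ± 0.59, 0.67 ± 0.61 and -0.24 ± 0.63. Among 11 receptor and JAK-STAT genes, 8, 7 and 5 were above 0. Ifngr1, which binds interferon gamma, measured 7.37 ± 3.27 CPM (SD, n = 5) in naive libraries and 12.3 ± 6.22 (n = 4) at peak, where peak replicate 3 held 21.0 CPM. The difference was 0.75 ± 0.37 (unadjusted p = 0.053), and the groups overlapped. Ifnar1 differed by -0.11 ± 0.45, -0.14 ± 0.48 and -0.40 ± 0.47 and Ifnar2 by -0.16 ± 0.33, 0.11 ± 0.35 and 0.25 ± 0.33. Jak1, a kinase of these receptors, differed by -0.25 ± 0.21, -0.20 ± 0.23 and -0.17 ± 0.21.

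Upstream of the interferons, Mavs, the mitochondrial adaptor of the RNA sensors, differed by -0.50 ± 0.47, 0.07 ± 0.49 and 0.48 ± 0.47. Ticam1 (TRIF), the adaptor of Tlr3, had the largest differences of the pathway list, 1.19 ± 0.79, 1.32 ± 0.83 and 1.05 ± 0.82. They rested on 0 to 56 reads per library, and peak replicates 3 and 4 had none. Tbk1, the kinase that activates Irf3, differed by 0.51 ± 0.32 at onset, Ptpn1, a phosphatase that acts on Jak2 and Tyk2, by 0.41 ± 0.24 at peak, and Nlrc5, which drives class I antigen presentation, by -0.34 ± 0.23 before symptoms.

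Markers of leukocytes, which respond strongly to interferon, are given beside the members. For the 36 tested members, mean log2 CPM was 1.69 to 2.02 in naive libraries, 1.48 to 1.94 before symptoms, 1.76 to 2.12 at onset and 1.76 to 2.04 at peak. That of 13 tested microglia and macrophage markers of 18 listed was 2.20 to 2.44, 2.02 to 2.34, 1.79 to 2.36 and 1.96 to 2.48 in the same order, and their summed level was 104.0 to 165.8, 103.9 to 113.9, 96.6 to 103.2 and 96.5 to 118.5 CPM. That of 16 tested lymphocyte markers of 20 listed was 1.75 to 2.09, 1.87 to 1.96, 1.72 to 2.34 and 1.49 to 1.96, and their summed level was 157.8 to 217.1, 152.7 to 177.5, 158.7 to 195.8 and 140.0 to 185.4 CPM. The highest onset sum of microglia and macrophage markers (103.2 CPM) lay just below the lowest naive sum (104.0 CPM), while their mean log2 CPM overlapped. Lymphocyte markers overlapped by both measures. No marker found in the table was at 0 in every library. Rod markers had a mean log2 CPM of 4.32 to 5.24 at onset against 3.38 to 4.32 in naive libraries, with a summed level of 439 to 788 against 277.0 to 412.7 CPM. The part of these cell types in the members' values was not tested.

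**Figure D4:**
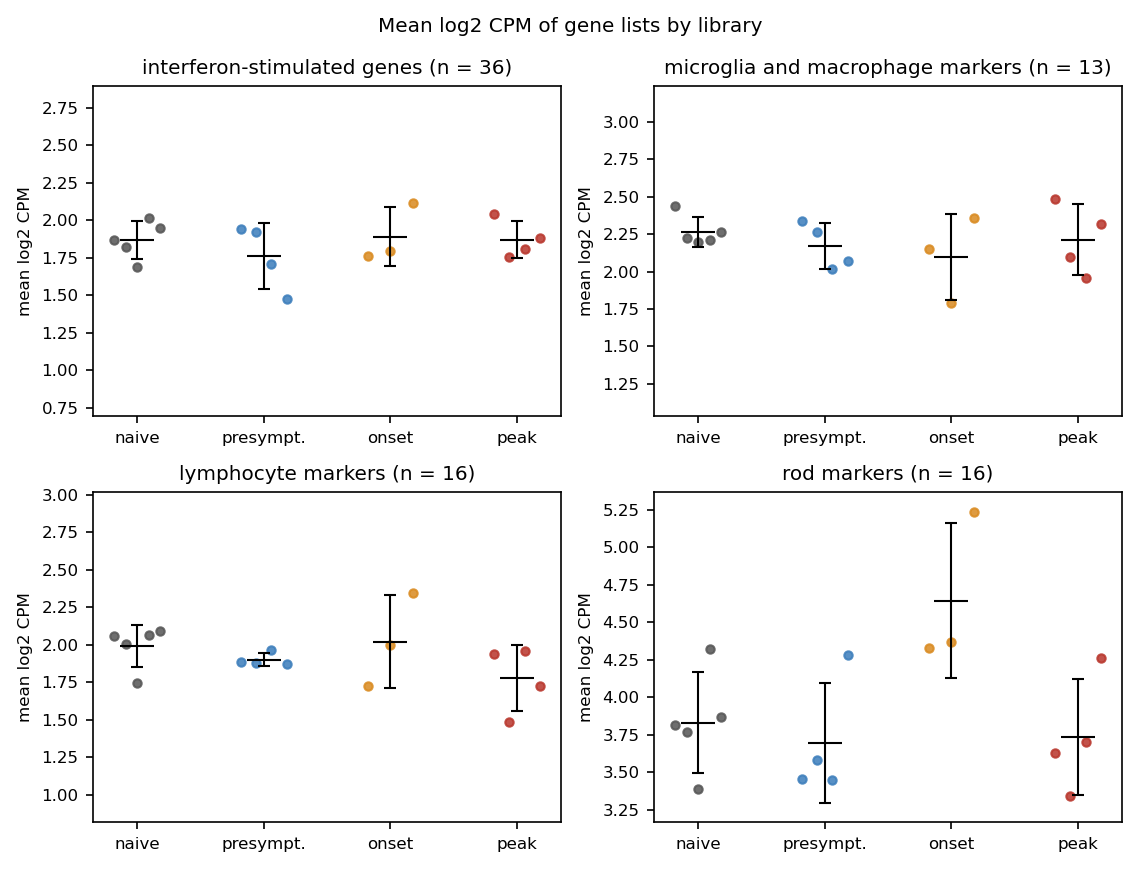
Mean log2 CPM (y axis) of the interferon-stimulated genes and of 3 marker lists in each library of the 4 groups (x axis); n in a panel title is the number of genes, the horizontal line is the group mean and the bar 1 SD. All 4 groups overlap for the interferon-stimulated genes and for microglia and lymphocyte markers, and rod markers are highest at onset.

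With each read taken as an independent count, the spread among libraries of a group exceeded counting error for every tested member. Whether reads were counted in pairs from the same fragment was not tested, and pairs would raise the counting error. The variance within groups was 2.45 (Irf7) to 17.8 (Ifi44) times that of counting alone, with a median of 7.41 over 36 members and 12 degrees of freedom, against 8.13 over all tested intervals. It was above 2 for 36 of 36 members and for 98.2% of all. For Ifit2 it was 17.4 and for Samhd1 16.98. A single library was highest of the 16 for at most 6 members (peak replicate 1; 16.7%, against 11.5% of all tested intervals) and lowest for at most 7 (presymptomatic replicate 4; 19.4%, against 11.3% of all).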

How the data were processed

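ATAC-seq of sorted mouse retinal ganglion cells was deposited as a table of 37255 gene intervals with counts and RPKM values for each library. Counts, as deposited, were whole reads per interval, unscaled. The RPKM values deposited by the authors were used only to recover library totals (7.42 to 65.2 M reads) and interval lengths, which equal the absolute difference between gene span and 2000 bp. The table's name speaks of start-site windows, and these lengths do not. The placement of the intervals was assumed from these lengths and was not tested. Cutadapt, HISAT2 and HTSeq are named in the submitters' processing notes. The sources used here do not give the genome build or the treatment of duplicates, read shifts and multiple alignments. All sample columns were mapped by name.

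Testing used edgeR 4.0.16 with limma 3.58.1 (R 4.3.3) after filterByExpr (minimum count 10, minimum total 15), which kept 29902 intervals and 36 of the 40 members. A quasi-likelihood model with TMM scaling was fitted to the 16 libraries, with Benjamini-Hochberg adjustment, a threshold of 0.05 and a prior count of 2 for log2 CPM. Standard errors follow from the F statistic. The script was tested on simulated data. DESeq2 1.42.0 was among 24 alternatives.

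Members given in full are the 4 with the smallest p in each comparison with naive and in the F test, and a named set (Ifit1, Isg15, Irf7, Stat2, Ddx58, Mx1, Oas2, Gbp2, Ifitm3 and Adar). Between stages the 2 smallest per comparison are given. The pathway genes named are Ifnar1, Ifnar2, Ifngr1, Jak1, Mavs and the 2 with the smallest p in each comparison with naive; a further gene of this rule is not reported here. Ifng, Ifnb1 and Ifna4 were added after their values were seen. The members and lists were chosen with earlier results of these data known. Floors and intervals on reads cover counting error only.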

Additional observations from a re-analysis of the deposited data

Results flagged for a closer look

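A Dixon criterion at its 95% critical value for a single library far from the rest marked 2 of 42 groups of 4 or 5 libraries with reads in more than 1 library, where chance marks about 1 in 20. For Samhd1, naive replicate 4 measured 27.7 CPM while the other naive libraries lay at 9.58 to 13.6 CPM. For the same gene, presymptomatic replicate 1 measured 9.17 CPM while the other 3 lay at 6.99 to 7.28 CPM. The criterion also marks 3 groups of Isg15, as it must where 1 library holds reads and the others hold 0: 0.214 CPM in naive replicate 1, 0.145 CPM in presymptomatic replicate 2 and 0.642 CPM in peak replicate 3, each from 2 to 4 reads.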

How the results depend on the processing

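Over 24 alternative analyses, 0 members were called in any of the 6 comparisons or the F test; the lowest adjusted p of a member was 0.52849. The median log2 fold change of the members left the tolerance of 0.125 in 4 cases. At onset against naive it was -0.131 without label numbers 16 and 17 (presymptomatic replicate 4 and onset replicate 3) and -0.132 without onset replicate 3. At onset against presymptomatic it was 0.0281 and 0.0761 under the same omissions. Leaving out each library in turn gave -0.14 to -0.00 before symptoms, -0.132 to 0.0706 at onset, -0.04 to 0.12 at peak, 0.08 to 0.31 for onset against presymptomatic, -0.00 to 0.12 for peak against onset and 0.07 to 0.24 for peak against presymptomatic. The cause was not tested. With the replicate number within each group as a replicate block, 0 members were called and the medians were -0.07, 0.04, 0.04, 0.16, -0.01 and 0.13 in the same order. Deviations of libraries from their group means had a median r of -0.0059 over 21 pairs with the same replicate number. Over 74 other pairs it was 0.0126. Of these pairs 6 and 17 were over 0.1, and the highest r was 0.3726 and 0.3365. The numbers were not taken to pair libraries, though these values do not exclude a pairing of some of them. Over all intervals the largest count of calls was 5, by DESeq2 at peak against onset and in the F test, against 0 by edgeR. At this depth Isg15, Ifitm1, Ifitm2 and Ifitm3 had too few reads to test.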
